A study of Homo sapiens with 12 samples.

Results

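MOB1A, MOB1B, LATS1, LATS2, YAP1, WWTR1, TEAD1, CTGF, CYR61 and ANKRD1 make up the output arm of the Hippo pathway described here: the adaptors and kinases at its lower end, the co-activators they restrain, a DNA-binding partner, and target genes. They are 10 of the 57773 genes in the deposited table, and all 10 were among the 18648 tested genes, those with 3 or more libraries at a normalized count of 1 or above. The set was chosen by the MOB1A values, after MOB1A had been seen to be lower with the ELOVL2 siRNA than with the control siRNA. In that contrast the 10 genes are therefore described and carry no test. The table uses the older symbols CTGF and CYR61 for the genes now named CCN2 and CCN1.

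RNA came from A498, an established human line derived from a kidney carcinoma, after transfection with siRNA. The 4 groups of 3 biological replicates received siRNAs against both ELOVL2 and ELOVL5 (called double-siRNA cells below), the ELOVL2 siRNA alone (siELOVL2 cells), the ELOVL5 siRNA alone (siELOVL5 cells), or a control siRNA (control cells). ELOVL2 and ELOVL5 encode enzymes that lengthen polyunsaturated fatty acids. All groups share 1 cell line and 1 sequencing batch label, and the sources used here do not give the siRNA sequences, their number per gene, the dose or the time of harvest.

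In the Hippo pathway, the kinases MST1 and MST2 (genes STK4 and STK3) act with the scaffold SAV1 and phosphorylate the small adaptors MOB1A and MOB1B. MOB1 then binds the kinases LATS1 and LATS2 and helps to activate them. Active LATS phosphorylates YAP (gene YAP1) and its relative TAZ (gene WWTR1), which are then held in the cytoplasm or degraded. Unphosphorylated YAP and TAZ enter the nucleus, bind TEAD factors at a short DNA motif and switch on genes such as CTGF, CYR61, ANKRD1 and, as negative feedback, LATS2. In renal epithelium the pathway is known for its part in growth control and in the response to cell density and stiffness. Much of this control acts on proteins, which RNA levels do not show.

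The sequences show where the letters that mark these roles stand. TEAD factors are known to bind the letters GGAATG, which were searched on both strands as GGAATG and CATTCC in RefSeq promoters of assembly GRCh38.p14, from 250 bases before to 50 bases after each transcript start. RefSeq promoters were matched for 8 of the 10 genes, and TEAD1 and CYR61 are named only. The 250 bases before the start are shown 5′ to 3′ for CTGF and ANKRD1, the target genes with several copies, and 30 bases around the copy for LATS2, with the motif in capitals:
CTGF, chr6:131951373-131951622, minus strand: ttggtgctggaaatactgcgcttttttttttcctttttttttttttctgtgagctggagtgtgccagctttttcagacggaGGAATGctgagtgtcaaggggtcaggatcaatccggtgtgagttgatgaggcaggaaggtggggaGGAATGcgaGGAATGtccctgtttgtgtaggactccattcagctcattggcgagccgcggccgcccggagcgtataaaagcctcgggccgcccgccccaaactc
ANKRD1, chr10:90921088-90921337, minus strand: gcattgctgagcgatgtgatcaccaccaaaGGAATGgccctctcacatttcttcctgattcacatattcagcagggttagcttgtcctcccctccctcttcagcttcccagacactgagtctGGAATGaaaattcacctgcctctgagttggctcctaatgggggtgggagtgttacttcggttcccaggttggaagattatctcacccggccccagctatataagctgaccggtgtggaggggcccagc
LATS2, chr13:21061559-21061588, minus strand: gtgacgcccgtGGAATGccaacaatgtagc
CTGF holds 3 copies, whose first bases lie at -169, -104 and -95 from the transcript start, and none of them overlaps another. ANKRD1 holds 2 copies, at -220 and -128, LATS2 holds 1 copy at position 10 of the transcript, and YAP1 holds 1 copy at -162. The MOB1A, MOB1B, LATS1 and WWTR1 windows hold none of these letters. Of 35116 RefSeq promoters of the same length, 14.0% hold at least 1 copy, 1.37% at least 2 and 0.128% at least 3.

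**Figure D1:**
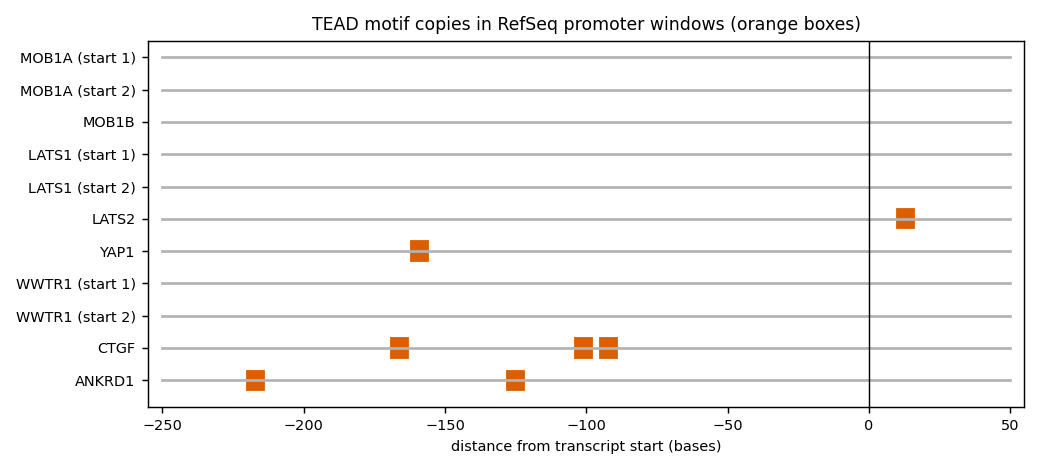
Position of GGAATG or CATTCC (orange boxes) in RefSeq promoter windows, in bases from the transcript start, for the genes with a RefSeq promoter; MOB1A, LATS1 and WWTR1 have 2 annotated starts each. The 3 CTGF copies and both ANKRD1 copies lie before the start, and the single LATS2 copy lies after it.

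A second set of letters concerns MOB1A itself. An earlier scan of these data had picked out related 7-base words in the 3′ UTRs of transcripts that were lower with the ELOVL2 siRNA. The first is ACGAATA, the next is CACGATA and the last is ACGATAA. For the ELOVL5 siRNA the word was GAGAGGA. Because the words came from these libraries, their presence supports nothing by itself. The 30 bases around each word are shown for the genes that hold one and for both targeted genes, in transcript orientation with the word in capitals, from GENCODE 29 on GRCh38:
MOB1A, chr2:74156091-74156120, minus strand: tcttttattttACGAATAaaaaatgtattt
TEAD1, chr11:12942257-12942286, plus strand: ctgccataataACGATAAtttgtagagaga
WWTR1, chr3:149519050-149519079, minus strand: tttgagtctctGAGAGGAtactttcaattt
ELOVL2, chr6:10982666-10982695, minus strand: cggtcatgagcCACGATAaaaaatgccagt
ELOVL5, chr6:53268249-53268278, minus strand: caccagtgcgaGAGAGGAtgtatacttttc
The MOB1A 3′ UTR of 4040 bases holds ACGAATA once, at its base 459. The longer MOB1B 3′ UTR, of 6111 bases, holds none of these words, and neither do those of LATS1, LATS2, YAP1, CTGF, CYR61 and ANKRD1. In ELOVL2 the words CACGATA and ACGATAA overlap at a single place, and ELOVL5 holds GAGAGGA once. ACGAATA occurs in 284 of 14103 3′ UTRs of tested genes (2.0%) and in 2.5% of the 850 whose length is within 10% of that of MOB1A, and ACGATAA, the word in TEAD1, occurs in 1.6%. GAGAGGA, the word in WWTR1, is common, with 2750 carriers (19.5%). Whether any of these letters matches either siRNA was not tested.

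The libraries can be described briefly. The deposited values are read counts that the authors brought to a common distribution, so each library has the same total. Read depth, estimated from the order in which genes with equal counts hold successive values, was 6.7 to 10.68 M reads with a median of 8.835 M. ELOVL2 averaged 23.9 ± 3.53 normalized counts in double-siRNA cells, 25.2 ± 6.05 in siELOVL2 cells, 228 ± 60.8 in siELOVL5 cells and 270 ± 50.7 in control cells (SD, n = 3 each). ELOVL5 averaged 179 ± 7.5 in double-siRNA cells, 2038 ± 271 in siELOVL2 cells, 148 ± 7.43 in siELOVL5 cells and 1977 ± 53.2 in control cells, so each targeted gene was low where its siRNA was given. Renal markers were present, with PAX8, a kidney lineage factor, at 511 to 676 and PAX2 at 85.5 to 139. CA9 (2.08 to 29.1) and NDUFA4L2 (0 to 5.33), both genes of the hypoxia response, were low. Of the markers of other cell types, CD3E of T cells and LUM of fibroblasts were at 0 in all 12 libraries. PTPRC of leukocytes and CDH5 and KDR of endothelium did not exceed 2.83, and VWF of endothelium did not exceed 6.33. Other genes of these lists were above 0 in every library. They were CD68 (285 to 451), ITGAM (16.1 to 48.8) and CD14 (0.833 to 9.67) of the 6 leukocyte markers and TEK (2.17 to 22.8) of the endothelial ones. Of the 6 fibroblast markers they were COL1A1 (up to 436) and PDGFRB (7.92 to 34.9). The renal marker list was not level across groups: CDH2, N-cadherin, averaged 1698 ± 28.8 in double-siRNA cells and 3143 ± 275 in siELOVL5 cells (SD, n = 3 each) and fell by 0.88 on the log2 scale between them (SE 0.08, limma adjusted p = 5.8e-05), and the sum of the 8 renal markers was 25860 to 28598 in double-siRNA cells, 27486 to 28298 in siELOVL2 cells, 25891 to 32578 in siELOVL5 cells and 31888 to 35128 in control cells. The sum was thus lower, without overlap, in both groups with the ELOVL2 siRNA than in control cells, and its part in the results below was not tested. Its largest terms were VIM (13122 to 24170 over the 12 libraries) and KRT8 (5179 to 8969), so it says little about PAX8 and PAX2. The library of siELOVL5 replicate 3 stood farthest from its group, with a median absolute deviation from the group mean of 0.149 on the log2 scale, against 0.047 to 0.107 for the other libraries. The LATS2, WWTR1, CYR61 and ANKRD1 differences that use it, and the correlations, are given with and without it.

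Per kilobase of annotated exon, MOB1A was the most abundant of the genes in control cells and only the fifth in double-siRNA cells. In double-siRNA cells the order of normalized counts per kilobase ran from TEAD1 (315 ± 5.6) and CYR61 (250 ± 82) through WWTR1 (183 ± 13), YAP1 (181 ± 12) and MOB1A (173 ± 33) to LATS2 (96.6 ± 6.7), CTGF (75.2 ± 35), MOB1B (61.5 ± 5.1), LATS1 (52.9 ± 3.4) and ANKRD1 (1.94 ± 1.2). In control cells it ran from MOB1A (492 ± 11), TEAD1 (344 ± 18), WWTR1 (238 ± 6.9), CYR61 (226 ± 66) and YAP1 (176 ± 4.8) to LATS2 (106 ± 14), MOB1B (69.0 ± 6.9), LATS1 (56.7 ± 2.6), CTGF (50.9 ± 17) and ANKRD1 (2.27 ± 2.8), with SD over n = 3 in both lists. In double-siRNA cells the neighbours that differed by less than the larger of their SDs were TEAD1 and CYR61, CYR61 and WWTR1, WWTR1 and YAP1, YAP1 and MOB1A, LATS2 and CTGF, and CTGF and MOB1B. In control cells they were WWTR1 and CYR61, CYR61 and YAP1, and LATS1 and CTGF. Exon lengths came from GENCODE 29, which may not be the annotation that the authors counted on.

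MOB1A, the adaptor that couples MST to LATS, was the gene with the clearest difference. In double-siRNA cells MOB1A was 36.7% of its level in siELOVL5 cells. Its paralog MOB1B was 84.2% of its level in siELOVL5 cells and did not pass the test. MOB1A stood at 954, 1036 and 1357 normalized counts in double-siRNA cells, at 1122, 1276 and 1369 in siELOVL2 cells, at 3220, 3210 and 2697 in siELOVL5 cells, and at 3210, 3214 and 3086 in control cells. All 6 libraries with the ELOVL2 siRNA lay below all 6 without it.

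The test compared double-siRNA with siELOVL5 cells, and not the siELOVL2 and control cells in which MOB1A was picked. Results of all 12 libraries were known by then, so the p-value is not that of a gene named in advance. Both contrasts differ by the same ELOVL2 siRNA, so the test repeats the property by which MOB1A was chosen and is not independent of that choice. With all 4 groups in 1 fit, the SE and p-value also use the spread within the siELOVL2 and control libraries. In double-siRNA against siELOVL5 cells MOB1A fell by 1.46 on the log2 scale (SE 0.12, n = 3 each; limma adjusted p = 5.8e-05, and 5.96e-07 to 0.0341 over the alternative settings). This call and the one for LATS2 given below were 2 of 10 genes, where 2.77% of all tested genes were called. MOB1A is the gene by which the set was chosen, so this count cannot speak for the set. The summed fibroblast marker list lay the same way: it was 275 to 328 in double-siRNA cells, 272 to 356 in siELOVL2 cells, 401 to 445 in siELOVL5 cells and 364 to 462 in control cells, mostly COL1A1, with LUM at 0 in 12 libraries and COL1A2 and DCN at 0 in 11 each. Its part in the MOB1A result was not tested. In bulk RNA, fewer cells with a transcript and less of it per cell cannot be told apart.

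The ELOVL5 siRNA did not go with a detectable difference in MOB1A. In siELOVL5 against control cells the difference was -0.06 (± 2 SE from -0.31 to 0.18, limma adjusted p = 0.905), and in double-siRNA against siELOVL2 cells it was -0.18 (from -0.43 to 0.06, limma adjusted p = 1.0). These 2 comparisons share libraries with the contrast by which MOB1A was chosen. In that contrast, siELOVL2 minus control, the MOB1A difference was -1.34 (SE 0.12), and in double-siRNA minus control cells it was -1.52 (SE 0.12), both given as description. Whether the ELOVL2 siRNA acted to the same extent with and without the ELOVL5 siRNA was not tested, and the plot of both contrasts sets the 2 values side by side.

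**Figure D2:**
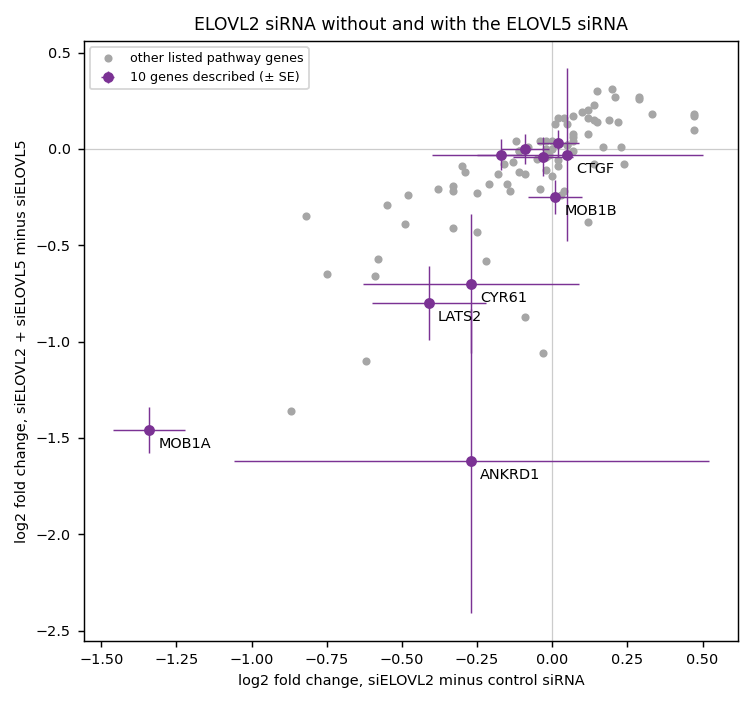
Log2 fold change with the ELOVL2 siRNA alone (siELOVL2 minus control, horizontal) and together with the ELOVL5 siRNA (double-siRNA minus siELOVL5, vertical) for the 10 genes (purple, ± SE) and the other listed pathway genes (grey). MOB1A lies at -1.34 and -1.46, while CYR61, LATS2 and ANKRD1 lie lower on the vertical axis than on the horizontal one.

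MOB1B, which can stand in for MOB1A at LATS, stood at 592, 519 and 511 normalized counts in double-siRNA cells, at 634, 552 and 646 in siELOVL2 cells, at 652, 639 and 635 in siELOVL5 cells, and at 620, 660 and 541 in control cells. The double-siRNA libraries all lay below the siELOVL5 libraries but overlapped the control libraries. The difference between double-siRNA and siELOVL5 cells was -0.25 (± 2 SE from -0.44 to -0.06, limma adjusted p = 0.185). Between siELOVL5 and control cells it was 0.09 (from -0.1 to 0.28, limma adjusted p = 0.812). The ratio of MOB1A to MOB1B normalized counts, not corrected for length, was 2.09 ± 0.528 in double-siRNA cells, 2.07 ± 0.274 in siELOVL2 cells, 4.74 ± 0.425 in siELOVL5 cells and 5.25 ± 0.422 in control cells (SD, n = 3 each). The pseudogenes MOB1AP1 and MOB1AP2 were at 0 in all 12 libraries. How reads shared by near-identical copies were counted is not stated.

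**Figure D3:**
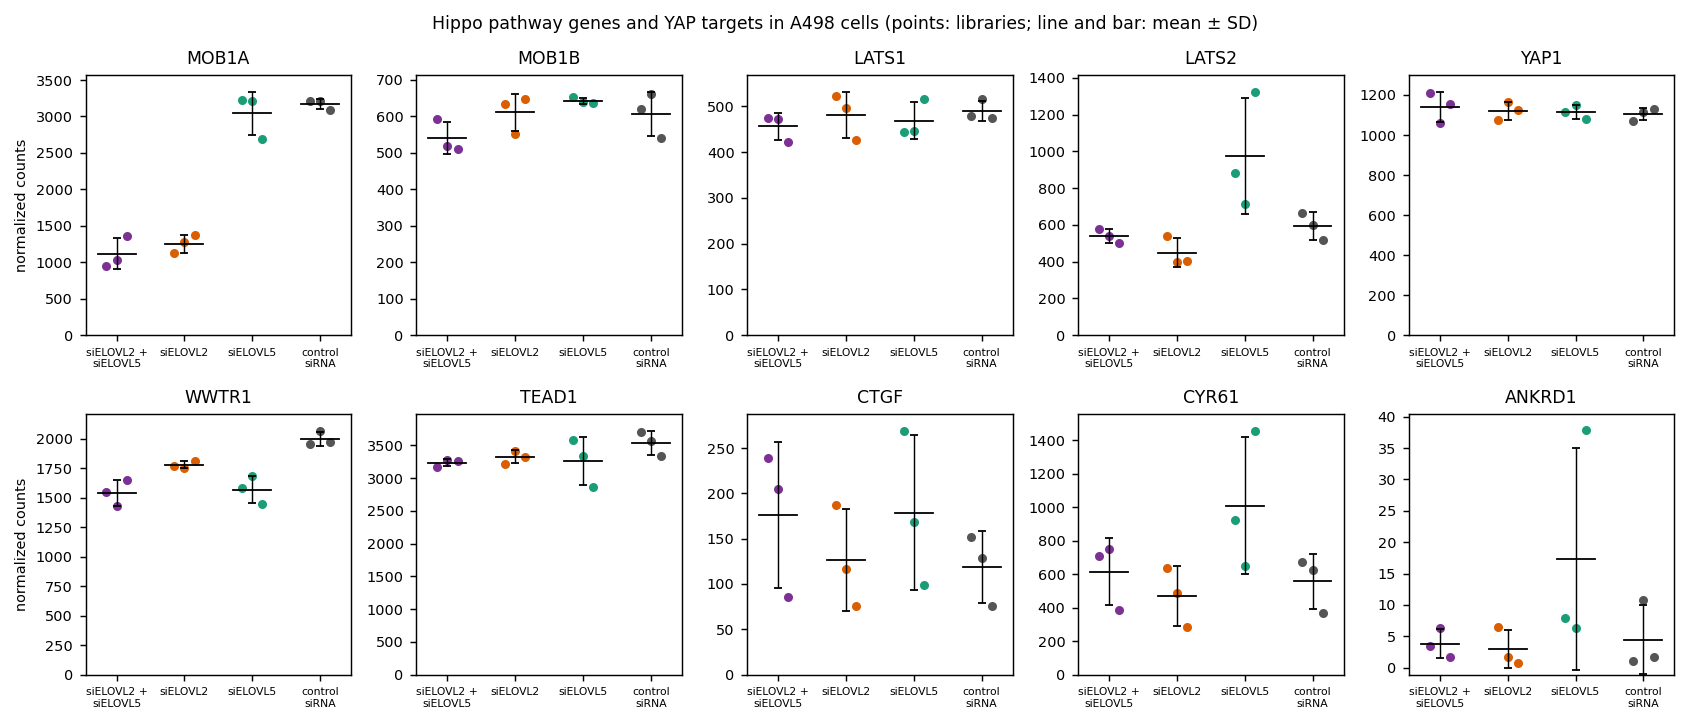
Normalized counts of each gene in every library (points), with the group mean (line) and SD (bar), for double-siRNA, siELOVL2, siELOVL5 and control cells. MOB1A separates the groups with the ELOVL2 siRNA (954 to 1369) from those without it (2697 to 3220), and WWTR1 is highest in control cells (1960 to 2067). LATS2, CYR61, ANKRD1, CTGF and MOB1A each have their highest library in siELOVL5 cells.

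The other 5 genes of the MOB family were all tested, and none passed in double-siRNA against siELOVL5 cells. The largest differences there were those of MOB3B (-0.58, SE 0.24, limma adjusted p = 0.23) and MOB3A (-0.18, SE 0.1, limma adjusted p = 0.387), a pair of genes whose products are not known as LATS activators. MOB3B averaged 58.6 ± 16.4 normalized counts in double-siRNA cells and 88.0 ± 25.4 in siELOVL5 cells (SD, n = 3 each), and the libraries of these groups overlapped.

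Of the LATS kinases, LATS2 was lower in double-siRNA than in siELOVL5 cells, and LATS1 did not differ detectably. LATS2 stood at 577, 538 and 503 normalized counts in double-siRNA cells, at 540, 401 and 404 in siELOVL2 cells, at 881, 714 and 1325 in siELOVL5 cells, and at 666, 599 and 516 in control cells. The 3 siELOVL5 libraries lay above every other library, and siELOVL5 replicate 3 was 1.66 times the mean of the other siELOVL5 replicates. LATS2 fell by 0.80 on the log2 scale in double-siRNA against siELOVL5 cells (SE 0.19, n = 3 each; limma adjusted p = 0.0417). This call was narrow, since it was lost in 10 of the 12 fits that leave out a library, with adjusted p up to 0.122. Without siELOVL5 replicate 3 the difference was -0.56 (limma adjusted p = 0.0531).

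Against control cells, siELOVL5 cells were higher in LATS2 by 0.67 (± 2 SE from 0.29 to 1.05), which did not pass the test (limma adjusted p = 0.27). Without siELOVL5 replicate 3 it was 0.43 (limma adjusted p = 0.49). As description, LATS2 in siELOVL2 minus control cells was -0.41 (SE 0.19), and the libraries overlapped. Double-siRNA and siELOVL2 cells differed by 0.28 (from -0.1 to 0.66, limma adjusted p = 1.0).

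LATS1, the paralog that does the same work on YAP and TAZ, stood at 475, 472 and 423 normalized counts in double-siRNA cells, at 523, 497 and 426 in siELOVL2 cells, at 444, 447 and 516 in siELOVL5 cells, and at 479, 516 and 475 in control cells. All 4 groups overlapped. Its differences were -0.04 in double-siRNA against siELOVL5 cells (± 2 SE from -0.23 to 0.16, limma adjusted p = 0.898) and -0.07 in siELOVL5 against control cells (from -0.26 to 0.13, limma adjusted p = 0.868). The ratio of LATS2 to LATS1 normalized counts, not corrected for length, was 1.18 ± 0.0383 in double-siRNA cells, 0.929 ± 0.115 in siELOVL2 cells, 2.05 ± 0.49 in siELOVL5 cells and 1.21 ± 0.159 in control cells (SD, n = 3 each).

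Above MOB1 in the cascade, the kinase gene STK3 showed -0.43 (SE 0.12) in double-siRNA against siELOVL5 cells and did not pass (limma adjusted p = 0.0748). STK4 showed 0.14 (SE 0.13, limma adjusted p = 0.639) and the scaffold SAV1 -0.38 (SE 0.16, limma adjusted p = 0.235). These 3 are named for their place next to MOB1, after their values had been seen. The list does not single them out. WWC2 (-0.41, SE 0.1, limma adjusted p = 0.059) and MINK1 (0.23, SE 0.06, limma adjusted p = 0.0724) lay nearer the threshold. FRMD6 differed more (-1.1, SE 0.38, limma adjusted p = 0.147). Of the list of 23 other Hippo kinases, scaffolds and regulators, 0 passed in that comparison by limma. At an unadjusted p under 0.05 there were 7 of 23, where 17.4% of all tested genes did so, and the median difference was -0.03, against 0.021 over all tested genes.

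Within that list 1 gene was called, and only in comparisons with control cells. AMOT, angiomotin, which binds YAP and TAZ and holds them at junctions, averaged 194 ± 8.94 normalized counts in double-siRNA cells, 190 ± 11.5 in siELOVL2 cells, 238 ± 32.3 in siELOVL5 cells and 280 ± 21.3 in control cells (SD, n = 3 each). It fell by 0.55 in siELOVL2 against control cells (SE 0.11, limma adjusted p = 0.0295). It fell by 0.52 in double-siRNA against control cells (SE 0.11, limma adjusted p = 0.0204), where the libraries of the groups did not overlap. AMOT was 1 of 23 genes in each, where 1.36% and 4.42% of all tested genes were called, in the same order. In double-siRNA against siELOVL5 cells AMOT showed -0.29 (SE 0.11) and did not pass (limma adjusted p = 0.198).

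Neither co-activator gene passed in a tested comparison. YAP1 stood at 1208, 1058 and 1156 normalized counts in double-siRNA cells, at 1074, 1165 and 1126 in siELOVL2 cells, at 1113, 1152 and 1081 in siELOVL5 cells, and at 1072, 1116 and 1130 in control cells. All 4 groups overlapped and all 12 libraries lay between 1058 and 1208. The YAP1 difference was 0.03 in double-siRNA against siELOVL5 cells (± 2 SE from -0.11 to 0.17, limma adjusted p = 0.874) and 0.01 in siELOVL5 against control cells (from -0.13 to 0.15, limma adjusted p = 0.978).

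WWTR1, which encodes TAZ, stood at 1551, 1426 and 1647 normalized counts in double-siRNA cells, at 1770, 1754 and 1815 in siELOVL2 cells, at 1582, 1681 and 1446 in siELOVL5 cells, and at 1960, 2067 and 1973 in control cells. The control libraries lay above all 9 others, the siELOVL2 libraries came next, and the siELOVL5 and double-siRNA libraries overlapped at the low end. In siELOVL5 against control cells WWTR1 was 78.5% of its level (-0.35, ± 2 SE from -0.5 to -0.2), which did not pass over all genes (limma adjusted p = 0.132), as none of the 10 genes did in that comparison, where 0.139% of tested genes were called. At an unadjusted p under 0.05 limma counted 4 of the 10 genes (LATS2, WWTR1, CYR61 and ANKRD1), where 9.56% of all tested genes did so. WWTR1 was the only one of the 10 that passed there under any alternative, at -0.31 with library weights (limma adjusted p = 0.0343). Without siELOVL5 replicate 3 the WWTR1 difference was -0.29 (limma adjusted p = 0.16). Groups without overlap and lower were found for 7.04% of tested genes in that comparison.

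In double-siRNA against siELOVL2 cells, WWTR1 was lower by a smaller amount, and again did not pass (-0.21, ± 2 SE from -0.36 to -0.06, limma adjusted p = 1.0). None of the 10 genes passed in that comparison, where 0.059% of tested genes were called. At an unadjusted p under 0.05 limma counted 1 of the 10, WWTR1 itself, where 3.6% of all tested genes did so. WWTR1 was the only one of the 10 whose groups did not overlap there, as was so, in the lower direction, for 4.33% of all tested genes. Double-siRNA and siELOVL5 cells did not differ detectably (-0.03, from -0.18 to 0.12, limma adjusted p = 0.903). As description, WWTR1 was -0.17 in siELOVL2 minus control cells and -0.38 in double-siRNA minus control cells (SE 0.08 each). The antisense gene WWTR1-AS1 did not exceed 2.0 normalized counts. Whether the counting used strand is not stated, so reads of the 2 strands cannot be told apart.

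**Figure D4:**
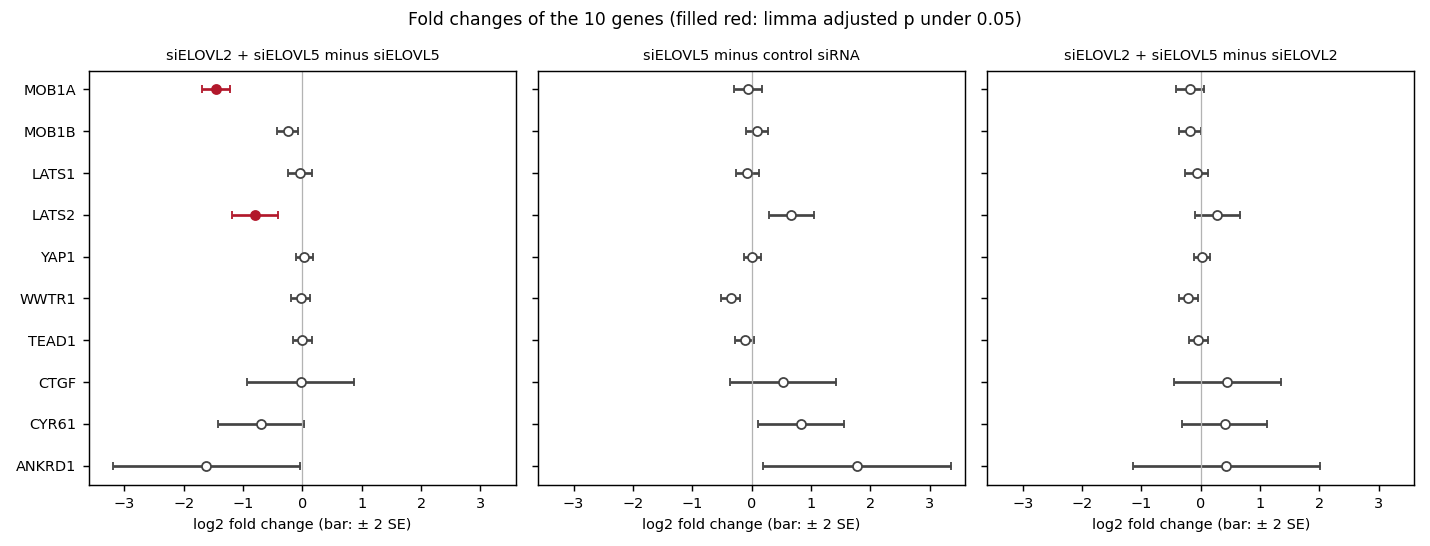
Log2 fold change of each gene (point) with ± 2 SE (bar) in the 3 comparisons in which the genes were tested, each panel titled by its pair of groups. MOB1A (-1.46) and LATS2 (-0.80) are filled as called in double-siRNA minus siELOVL5 cells, no gene is called in the other panels, and the bars of CTGF, CYR61 and ANKRD1 are the widest.

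TEAD1, the DNA-binding partner of YAP and TAZ, stood at 3169, 3276 and 3262 normalized counts in double-siRNA cells, at 3220, 3418 and 3329 in siELOVL2 cells, at 3575, 3335 and 2856 in siELOVL5 cells, and at 3704, 3563 and 3335 in control cells. The double-siRNA libraries lay below the control libraries, and the siELOVL5 libraries spanned nearly the whole range. The TEAD1 difference was 0.00 in double-siRNA against siELOVL5 cells (± 2 SE from -0.17 to 0.16, limma adjusted p = 0.998) and -0.12 in siELOVL5 against control cells (from -0.29 to 0.04, limma adjusted p = 0.66). Of the 7 other TEAD factors and VGLL cofactors, 4 were abundant enough to test and 0 passed in double-siRNA against siELOVL5 cells. The largest differences in double-siRNA against siELOVL5 cells were those of TEAD4 (-0.23, SE 0.12, limma adjusted p = 0.352) and VGLL4 (-0.13, SE 0.1, limma adjusted p = 0.531), a repressor that competes with YAP for TEAD.

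None of the target genes CYR61, CTGF and ANKRD1 passed in a tested comparison, and their fold changes had the largest SEs of the 10 genes. CYR61, a secreted matrix protein and a standard readout of YAP activity, stood at 706, 753 and 384 normalized counts in double-siRNA cells, at 639, 489 and 282 in siELOVL2 cells, at 923, 648 and 1456 in siELOVL5 cells, and at 673, 626 and 369 in control cells. The groups overlapped, and siELOVL5 replicate 3 was the highest library, at 1.85 times the mean of the other siELOVL5 replicates. CYR61 differed by -0.70 in double-siRNA against siELOVL5 cells (± 2 SE from -1.42 to 0.02, limma adjusted p = 0.35) and by 0.83 in siELOVL5 against control cells (from 0.11 to 1.55, limma adjusted p = 0.504). Without siELOVL5 replicate 3 the values were -0.39 (limma adjusted p = 0.637) and 0.52 (limma adjusted p = 0.861).

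CTGF, a secreted matrix-associated factor with 3 TEAD motif copies before its start, stood at 239, 205 and 85.5 normalized counts in double-siRNA cells, at 187, 117 and 75.3 in siELOVL2 cells, at 269, 168 and 99.2 in siELOVL5 cells, and at 152, 129 and 75.3 in control cells. The groups overlapped, and the library numbered 3 was the lowest in 4 of 4 groups. Unlike CYR61, CTGF was not high in siELOVL5 replicate 3, where it was 0.454 times the mean of the other siELOVL5 replicates. CTGF differed by -0.03 in double-siRNA against siELOVL5 cells (± 2 SE from -0.93 to 0.86, limma adjusted p = 0.99) and by 0.53 in siELOVL5 against control cells (from -0.36 to 1.43, limma adjusted p = 0.74). With SEs of 0.45, CTGF differences inside these intervals were not excluded.

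ANKRD1, a nuclear ankyrin repeat protein that is strongly induced by YAP in many epithelial lines, was scarcely expressed here. The reads recovered from its values were 3, 6 and 2 in double-siRNA cells, 7, 2 and 1 in siELOVL2 cells, 9, 8 and 35 in siELOVL5 cells, and 1, 11 and 2 in control cells. As normalized counts these were 3.5, 6.33 and 1.67 in double-siRNA cells, 6.42, 1.67 and 0.833 in siELOVL2 cells, 7.92, 6.33 and 37.8 in siELOVL5 cells, and 1.0, 10.8 and 1.67 in control cells. Only siELOVL5 replicate 3 stood clear of the rest, at 5.3 times the mean of the other siELOVL5 replicates. The fitted difference was -1.62 in double-siRNA against siELOVL5 cells (± 2 SE from -3.2 to -0.03, limma adjusted p = 0.321) and -0.86 without that library (limma adjusted p = 0.627). In siELOVL5 against control cells it was 1.78 (from 0.19 to 3.36, limma adjusted p = 0.514) and 1.02 without that library (limma adjusted p = 0.879). At such low counts the fitted value also depends on the pseudocount, and was -1.09 with a pseudocount of 5 in double-siRNA against siELOVL5 cells.

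**Figure D5:**
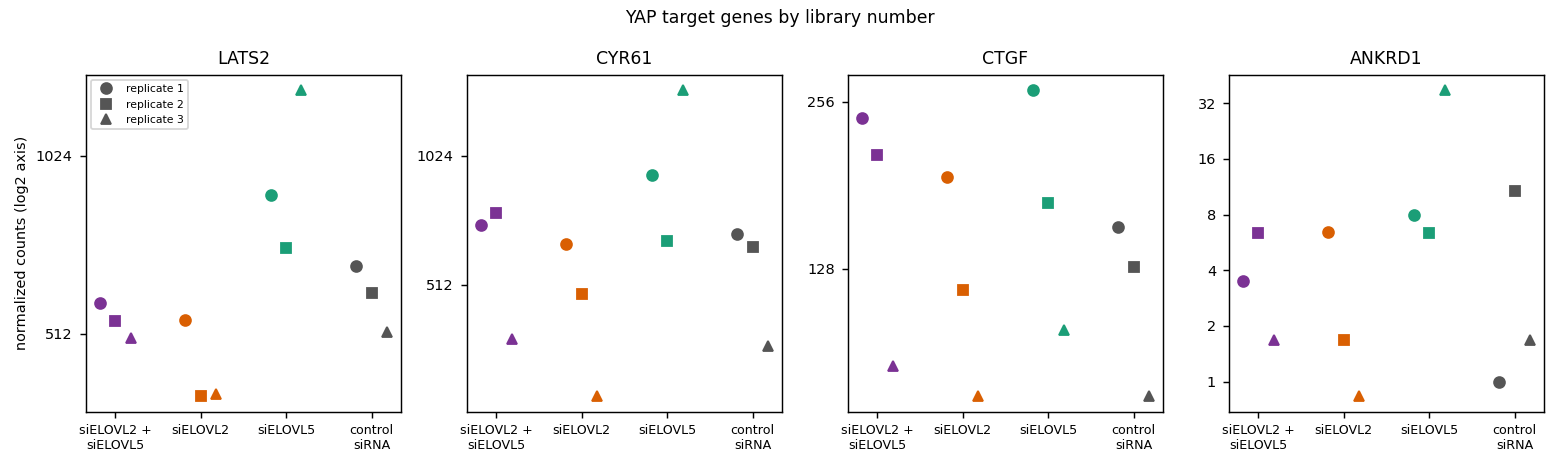
Normalized counts (log2 axis) of LATS2, CYR61, CTGF and ANKRD1 by library number (circle, square and triangle for replicates 1, 2 and 3) in double-siRNA, siELOVL2, siELOVL5 and control cells. The triangle of siELOVL5 cells is the highest point for LATS2 (1325), CYR61 (1456) and ANKRD1 (37.8) but not for CTGF (99.2), where the triangle is the lowest point of each group.

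How the target genes moved together depended on siELOVL5 replicate 3, the highest library of LATS2, CYR61 and ANKRD1 but not of CTGF. Over the 12 libraries, Pearson's r of log2 values was 0.87 between LATS2 and CYR61, 0.83 between CYR61 and ANKRD1 and 0.80 between LATS2 and ANKRD1, against 0.57 between CTGF and CYR61 and 0.29 between CTGF and ANKRD1. Over the 11 libraries without it, r was 0.77 between LATS2 and CYR61, 0.71 between CYR61 and ANKRD1 and 0.57 between LATS2 and ANKRD1, against 0.95 between CTGF and CYR61 and 0.65 between CTGF and ANKRD1. These are descriptions over libraries that share cell line, batch label and groups. The library numbered 3 was the lowest for CTGF in 4 of 4 groups and for CYR61 in 3 of 4. The part of the replicate number in these values was not tested. MOB1A had r of 0.55 with LATS2, 0.25 with CYR61, 0.26 with ANKRD1 and -0.12 with CTGF over 12 libraries. Over 11 libraries these were 0.61, 0.15, 0.16 and -0.07 in the same order. WWTR1 had r of -0.41 with LATS2, -0.55 with CYR61, -0.46 with ANKRD1 and -0.38 with CTGF over 12 libraries. Over 11 libraries these were -0.14, -0.39, -0.24 and -0.56 in the same order.

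Of the 18 other YAP and TAZ target genes, all were tested and 0 passed in double-siRNA against siELOVL5 cells, in siELOVL5 against control cells or in double-siRNA against siELOVL2 cells. Their median difference was -0.1 in double-siRNA against siELOVL5 cells, with 7 of 18 above 0, and 0.0 in siELOVL5 against control cells, with 9 of 18 above 0. The 1 call on that list was AMOTL2, a junction protein that binds YAP, which rose by 0.56 in double-siRNA against control cells (SE 0.14, limma adjusted p = 0.048). There, 4.42% of all tested genes were called. AMOTL2 averaged 1785 ± 296 normalized counts in double-siRNA cells, 1518 ± 169 in siELOVL2 cells, 1584 ± 303 in siELOVL5 cells and 1204 ± 91.1 in control cells (SD, n = 3 each).

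Genes under SRF and its cofactor MRTF, which answer to the actin state and share several targets with YAP, were listed alongside. Of 12, 11 were tested, and 0 passed in double-siRNA against siELOVL5 cells. TPM1, a tropomyosin of actin filaments, averaged 2141 ± 163 normalized counts in double-siRNA cells, 2025 ± 404 in siELOVL2 cells, 3387 ± 567 in siELOVL5 cells and 3392 ± 533 in control cells (SD, n = 3 each). It fell by 0.75 in siELOVL2 against control cells (SE 0.16, limma adjusted p = 0.0406) and by 0.65 in double-siRNA against control cells (SE 0.16, limma adjusted p = 0.0402). TPM1 was 1 of 11 in each, where 1.36% and 4.42% of all tested genes were called, in the same order.

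Of the 10 genes that handle YAP and TAZ turnover, such as 14-3-3 proteins and ubiquitin ligase subunits, 0 passed in any comparison. The largest differences in double-siRNA against siELOVL5 cells were those of the 14-3-3 gene YWHAH (-0.22, SE 0.12, limma adjusted p = 0.376) and of FBXW11 (0.15, SE 0.07, limma adjusted p = 0.264), a ubiquitin ligase subunit. Of the 11 genes of the STRIPAK complex, a phosphatase assembly that opposes MST1 and MST2, STRN4 was the only call. It rose by 0.32 in double-siRNA against control cells (SE 0.07, limma adjusted p = 0.0219), at 914 ± 27.4 normalized counts in double-siRNA cells and 730 ± 31.1 in control cells (SD, n = 3 each). Of all tested genes, 4.42% were called in that comparison.

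Counted over the 86 listed pathway genes outside the 10, of which 82 were tested, 0 passed in double-siRNA against siELOVL5 cells, 0 in siELOVL5 against control cells and 0 in double-siRNA against siELOVL2 cells. At an unadjusted p under 0.05 limma counted 18 of 82 in double-siRNA against siELOVL5 cells, where 17.4% of all tested genes did so, 11 in siELOVL5 against control cells and 2 in double-siRNA against siELOVL2 cells. In siELOVL2 against control cells 2 fell and 0 rose, where 1.36% of all tested genes were called. In double-siRNA against control cells 2 rose and 2 fell, where 4.42% of all tested genes were called. Those 2 comparisons share the control libraries.

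Among the 10 genes themselves, 9 differences were below 0 and 1 above in double-siRNA against siELOVL5 cells, with a median of -0.14, against 0.021 over all tested genes. The groups did not overlap for 3 of them, MOB1A, MOB1B and LATS2, all lower in double-siRNA cells, where 7.43% of all tested genes were lower without overlap. The counts in this paragraph include MOB1A, by which the set was chosen. In siELOVL5 against control cells 6 differences were above 0 and 4 below, with a median of 0.05, and the groups did not overlap for LATS2, higher, and WWTR1, lower; 6.07% of all tested genes were higher without overlap. In double-siRNA against siELOVL2 cells 5 were above 0 and 5 below, with a median of -0.01, and those not yet given lay between -0.18 (MOB1B) and 0.45 (CTGF), each with a limma adjusted p of 1.0. As description, 7 of 10 differences were below 0 in siELOVL2 minus control cells, and MOB1A and WWTR1 were lower without overlap, where 10.4% of all tested genes were. In double-siRNA minus control cells 6 of 10 were below 0, and MOB1A, WWTR1 and TEAD1 were lower without overlap, where 11.4% of all tested genes were.

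The genes whose pattern over the 12 libraries was most like that of MOB1A were found among 9324 genes with a mean value at or above the median of the tested genes. By Pearson's r of log2 values these were VBP1, a prefoldin subunit (0.993), PABPC4, a poly(A)-binding protein (0.992), TAF10, a subunit of TFIID (0.991), LIMK1, a kinase that acts on cofilin (0.984), and SMNDC1, a splicing factor (0.984). In double-siRNA minus siELOVL5 cells their differences were -1.59 for VBP1, -0.78 for PABPC4, -1.15 for TAF10, -0.9 for LIMK1 and -0.56 for SMNDC1, and in siELOVL5 minus control cells they were -0.15, 0.03, 0.01, -0.11 and -0.03 in the same order. These genes were picked for following MOB1A over the same libraries, so the choice itself set this pattern, and the differences are description only. The VBP1 3′ UTR holds ACGAATA and that of SMNDC1 holds ACGATAA. Those of PABPC4, TAF10 and LIMK1 hold none of the 3 words picked out for the ELOVL2 siRNA. Any of the 3 words was held by 4.5% of the 3′ UTRs of tested genes. Among genes called lower in siELOVL2 against control cells, 40.3% held one. The words came from transcripts lower with the ELOVL2 siRNA, and these genes were picked for following MOB1A, which was lower too. Carriers among them therefore support nothing by themselves.

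The genes most like CYR61 were TRAF1, an adaptor of TNF receptor signalling (0.959), the transcription factor ETS1 (0.956), NCEH1, a neutral cholesterol ester hydrolase (0.95), IL6ST, the shared receptor subunit of the interleukin-6 family (0.947), and RGMB, a co-receptor for bone morphogenetic proteins (0.945). Their differences in siELOVL5 minus control cells were 1.54 for TRAF1, 0.65 for ETS1, 0.66 for NCEH1, 0.3 for IL6ST and 0.54 for RGMB. In double-siRNA minus siELOVL5 cells they were -1.72, -0.86, -0.7, -0.23 and -0.41 in the same order. The 5 genes were picked for following CYR61 over the same libraries, so the choice largely set the direction of these differences. Both comparisons use the siELOVL5 libraries, with the sign of those libraries turned round, and siELOVL5 replicate 3 was the highest library of all 5 genes. Without it, r with CYR61 was 0.91 to 0.946, and the siELOVL5 minus control differences were 0.85 for TRAF1, 0.3 for ETS1, 0.53 for NCEH1, 0.23 for IL6ST and 0.37 for RGMB. TRAF1, for example, stood at 473, 235 and 1406 normalized counts in siELOVL5 cells, against 282, 187 and 119 in control cells. It stood at 252, 151 and 70.8 in siELOVL2 cells and at 253, 196 and 86.3 in double-siRNA cells. Outside siELOVL5 cells all 5 genes fell from replicate 1 to 2 to 3 in each group. CYR61 was lowest in the library numbered 3 in 3 of 4 groups. The part of the replicate number in these correlations was not tested. For the 5 genes most like MOB1A, r without siELOVL5 replicate 3 was 0.983 to 0.993.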

How the data were processed

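RNA from 12 A498 libraries was sequenced as paired-end 36-base reads on a NextSeq 500, per the labels. The deposited table holds 1 signal value per gene and library, read counts that the authors normalized: every column holds the same set of values, all multiples of 1 over 12, as quantile normalization of counts over 12 libraries gives. The sources used here name no aligner, counting tool, annotation or genome build. Groups came from the labels, 3 biological replicates each; whether they were separate cultures is not stated, so p-values measure the spread between these libraries.

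limma 3.58.1 in R 4.3.3 was run on log2(value + 1) with all 4 groups in 1 fit (8 residual degrees of freedom, empirical Bayes with an intensity trend). Tested were 18648 genes, those with 3 or more libraries at a value of 1 or above, with Benjamini-Hochberg adjustment over all of them and a threshold of 0.05. Fold changes are on the log2(value + 1) scale, which understates low genes. The fit and the depth estimate were tested on simulated data. Depth and low read numbers were recovered from the order of genes with tied counts, using counts of 20 to 60 reads for depth. The recovered reads cover only low counts, so no count test was run. The highest normalized count at which a library had 0 reads was 0 to 0.917, which is the limit of detection.

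The 10 genes and the 7 pathway lists were chosen with earlier results of these data known. Named were the 10 genes, both targeted genes, up to 4 called genes per list and comparison or, in a list with no call, the 2 with the largest difference in double-siRNA minus siELOVL5 cells, and the 5 genes most correlated with MOB1A and with CYR61. STK3, STK4, SAV1, WWC2, MINK1 and FRMD6 were named in addition, after their values had been seen. The alternatives were a replicate block, pseudocounts of 0.5 and 5, no filter, a filter at 10, median-of-ratios scaling, no intensity trend, only the 2 groups compared, library weights, and leaving out each library. Promoters and 3′ UTRs came from RefSeq and GENCODE 29; motif positions have no 0, with 1 the first transcribed base.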

Additional observations from a re-analysis of the deposited data

How the results depend on the processing

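MOB1A in double-siRNA minus siELOVL5 cells kept its direction and call in all alternatives run, with differences of -1.61 to -1.35 when 1 library was left out. LATS2 in that comparison kept its direction (-1.0 to -0.56 without 1 library) but lost its call at -0.80 with no filter (limma adjusted p = 0.0609), with no intensity trend (0.121) and with only the 2 groups compared (0.226). It also lost it without any of the control or double-siRNA libraries, siELOVL2 replicates 2 and 3, or siELOVL5 replicates 1 and 3 (limma adjusted p 0.0512 to 0.122). No other member's call changed except that of WWTR1 in siELOVL5 minus control cells, given above.

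Counts of called genes, and so the shares printed beside the 10 genes, moved more. In double-siRNA minus siELOVL5 cells 516 genes were called, against 200 with no intensity trend, 21 with only the 2 groups compared, 1251 with library weights, and 156 (without double-siRNA replicate 2) to 789 (without siELOVL5 replicate 3) with 1 library left out. In siELOVL5 minus control cells 26 were called, against 1 with only the 2 groups compared, 145 with library weights and 9 (without control replicate 2 or 3) to 41 (without siELOVL5 replicate 3). In double-siRNA minus siELOVL2 cells 11 were called, against 21 with no trend, 1 with only the 2 groups, 27 with library weights and 2 (without siELOVL2 replicate 3) to 16. In siELOVL2 minus control cells 254 were called, against 101 with no trend, 412 with only the 2 groups, 1569 with library weights and 63 (without control replicate 2) to 829 (without siELOVL5 replicate 3). In double-siRNA minus control cells 825 were called, against 413 with no trend, 2241 with library weights and 323 (without control replicate 2) to 1779 (without siELOVL5 replicate 3). The cause was not tested. The correlations without siELOVL5 replicate 3, given above, were added after seeing the data.

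Libraries of different groups that share a replicate number correlated in their deviations from the group means at -0.00123 to 0.212 (9 of 18 pairs over 0.1), against -0.215 to 0.0644 for other pairs, and 10 of 12 libraries correlated best with their own number, a hint from the data and not from the design. With the replicate block the called genes were 1368 in double-siRNA minus siELOVL5 cells, 99 in siELOVL5 minus control, 861 in siELOVL2 minus control and 1866 in double-siRNA minus control cells. The block gave MOB1A -1.46 (limma adjusted p = 4.62e-05) and LATS2 -0.80 (0.0188) in double-siRNA minus siELOVL5 cells, and WWTR1 -0.35 (0.0635) in siELOVL5 minus control cells.

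With 3 libraries a group, the SE of a log2 fold change was 0.45 for CTGF, 0.36 for CYR61 and 0.79 for ANKRD1, which limits what could be called for them, and ANKRD1 had 1 to 35 reads per library.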
